A study of Mus musculus with 6 samples.

Results

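The MAP kinase cascade genes are those whose mouse symbol begins with Map2k, Map3k or Map4k and a digit, or with Mapk and a digit or the letter a. Of 53379 genes in the count files, 54 symbols matched, and leaving out the opposite-strand transcript Map2k3os left 53 members. They were counted in 6 RNA libraries of Min6 cells, an insulin-secreting line from a mouse insulinoma. All cells, in both groups, were at passage 31 and had spent 30 h in 25 mM glucose and 500 µM palmitic acid, which the labels call glucolipotoxicity, so no untreated cells enter any comparison. The hnRNPK IP group holds 3 libraries of RNA that came down from lysate with 200 µg of protein on beads with an antibody against hnRNPK, a nuclear ribonucleoprotein that binds C-rich RNA. The total RNA group holds 3 libraries from a 10% input of the lysate. The comparison asks which mRNAs the IP held in excess of the lysate, and which it held less of. No IP with another antibody is analysed here, and RNA held by hnRNPK and RNA held by the beads cannot be told apart.

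In a MAP kinase cascade each kinase activates the next by phosphorylation. A MAP4K can switch on a MAP3K, the MAP3K phosphorylates a MAP2K, and the MAP2K phosphorylates a classical MAP kinase on a threonine and a tyrosine of its activation loop. The best known outputs are the ERK kinases, which respond to growth factors and, in beta cells, to glucose, and the JNK and p38 kinases, which respond to stress such as fatty acid overload and cytokines. Scaffold proteins hold the kinases of one route together, and of the kinases named MAPKAPK, Mapkapk2 and Mapkapk3 act below p38.

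Total counts ranged from 38764925 to 52735957 per library. Levels are CPM, the counts of a gene scaled to library size with TMM factors, given in the order of libraries 1, 2 and 3, and means are given ± SD (n = 3). Differences are log2 fold changes ± SE, IP minus total RNA, and a gene was called enriched or depleted at a Benjamini-Hochberg adjusted p under 0.05 in edgeR's quasi-likelihood test over 16929 genes. The labels leave out whether replicate libraries stem from separate cultures, so p-values describe only their spread, which may be technical. All 11 beta cell markers were detected in total RNA, with summed levels of 21774 to 31265 CPM, against 6605 to 7973 in the IP. Of these, Ins1, Ins2, Iapp and G6pc2 were depleted and the other 7 enriched. Summed levels in total RNA were 133 to 167 CPM over 7 markers of other islet cells, nearly all of it glucagon (Gcg, 151 CPM), 0.434 to 0.631 over 8 exocrine and duct markers and 2.81 to 4.08 over 8 stromal, vessel and blood markers. In the IP these sums were 124 to 172, 0.118 to 1.21 and 6.19 to 8.57 CPM, and their part in the results was not tested. Hhex, Pdgfrb and 5 exocrine and duct markers were among those that had no reads in total RNA.

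The activation loops are shown because genes with the same residues between their phosphorylation sites, such as Map2k4 and Map2k5 or Mapk8 and Mapk9, had different calls. The coding sequence of each MAP2K is given around the pair of residues that a MAP3K phosphorylates, with the codons from the first to the last of that pair in capitals (GENCODE M21 transcripts, GRCm38). Each stretch lies in 1 coding exon: chr9:64193723-64193749 (minus) for Map2k1, chr10:81119334-81119360 (plus) for Map2k2, chr11:60946721-60946747 (plus) for Map2k3, chr11:110496416-110496442 (plus) for Map2k6, chr11:65707008-65707034 (minus) for Map2k4, chr8:4244556-4244582 (plus) for Map2k7 and chr9:63262165-63262191 (minus) for Map2k5.
Map2k1: attgacTCTATGGCCAACTCCttcgtg
Map2k2: atcgacTCCATGGCCAACTCGtttgta
Map2k3: gtggacTCTGTGGCAAAGACAatggat
Map2k6: gtcgacTCTGTTGCTAAAACGatcgat
Map2k4: gtggacTCTATTGCCAAGACAagagat
Map2k7: gttgacTCCAAAGCCAAAACAcggagt
Map2k5: gtgaatTCTATAGCCAAGACGtatgtt

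For the MAP kinases shown the capitals mark the codons of the activation-loop triplet, which in the ERK, JNK and p38 kinases holds the threonine and tyrosine that a MAP2K phosphorylates. The triplet reads threonine-glutamate-tyrosine in Mapk3, Mapk7 and Mapk15, threonine-proline-tyrosine in the JNK group and threonine-glycine-tyrosine in the p38 group. Mapk6 has serine-glutamate-glycine and no tyrosine. They too lie in 1 coding exon each: chr7:126763449-126763475 (plus) for Mapk3, chr11:61491413-61491439 (minus) for Mapk7, chr15:75996137-75996163 (plus) for Mapk15, chr14:33392994-33393020 (minus) for Mapk8, chr11:49872821-49872847 (plus) for Mapk9, chr5:102989672-102989698 (minus) for Mapk10, chr15:89145857-89145883 (minus) for Mapk11, chr15:89134667-89134693 (minus) for Mapk12, chr17:28776335-28776361 (plus) for Mapk13, chr17:28728390-28728416 (plus) for Mapk14 and chr9:75395628-75395654 (minus) for Mapk6.
Mapk3: ggctttctgACGGAGTATgtggccaca
Mapk7: tacttcatgACTGAGTATgtggctact
Mapk15: caggccctgACAGAGTATgtggccaca
Mapk8: tttatgatgACGCCTTATgtggtgact
Mapk9: tttatgatgACTCCCTATgtggtaact
Mapk10: ttcatgatgACTCCGTATgtggtgacg
Mapk11: gaggagatgACCGGATATgtggccaca
Mapk12: agtgagatgACAGGATATgtggtaacc
Mapk13: actgagatgACGGGCTATgtggtgacc
Mapk14: gatgagatgACAGGCTACgtggctacc
Mapk6: ggtcatcttTCTGAAGGAttggttacc

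Of the 53 members, 52 passed the filter on low counts. The other one, Map3k7cl, a relative of the C-terminal part of the kinase Map3k7, had 0 reads in all 6 libraries. Of the 52, 25 (48.1%) were enriched, against 28.9 percent of all genes tested, and 11 (21.2%) were depleted, against 33.6 percent. The median log2 fold change was 0.37 over the members and −0.071 over all genes. Calls of at least 2-fold numbered 10 enriched (19.2% against 19.6% of all genes) and 5 depleted (9.62% against 24.5%). In 36 members (69.2%) the 2 groups of libraries did not overlap, which is close to the 71.4% of all genes. With library totals in place of TMM factors the median of all genes shifted by −0.43, the members had 16 enriched and 20 depleted, and their median changed sign to −0.062. The enriched share of member calls was then 44.4%, in place of 69.4%, and that of calls over all genes 32.1%, in place of 46.3%.

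The calls are given by tier, and of all genes tested 28.9% were enriched and 33.6% depleted. The enriched and depleted shares were 20% and 20% for MAP4K, 28.6% and 42.9% for MAP2K, and 33.3% and 33.3% for MAPKAPK. They were 50% and 5.56% for MAP3K, 61.5% and 23.1% for the MAP kinases, and 66.7% and 33.3% for the scaffolds and other members. Of 5 MAP4K genes 1 was enriched and 1 depleted (median log2 fold change −0.049), and of 18 MAP3K genes 9 were enriched and 1 depleted (0.54). Of 7 MAP2K genes 2 were enriched and 3 depleted (−0.16), and of 13 MAP kinases 8 were enriched and 3 depleted (0.78). The 3 MAPKAPK genes had 1 call each way (−1.01), and the 6 tested scaffolds and other members had 4 enriched and 2 depleted (0.46). The MAP kinases spanned the widest range, from −2.75 to 2.27. The MAP2K median was −0.33 without IP replicate 2, −0.076 without IP replicate 1 and −0.077 without total RNA replicate 3. The MAP4K median was −0.13 to 0.028 over the 6 omissions, lowest without IP replicate 1 and above 0 without total RNA replicate 1. These tier values are descriptions, and the differences between tiers were not tested. With library totals alone the 6 medians were −0.48, 0.11, −0.59, 0.35, −1.45 and 0.023 in the same order.

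**Figure D1:**
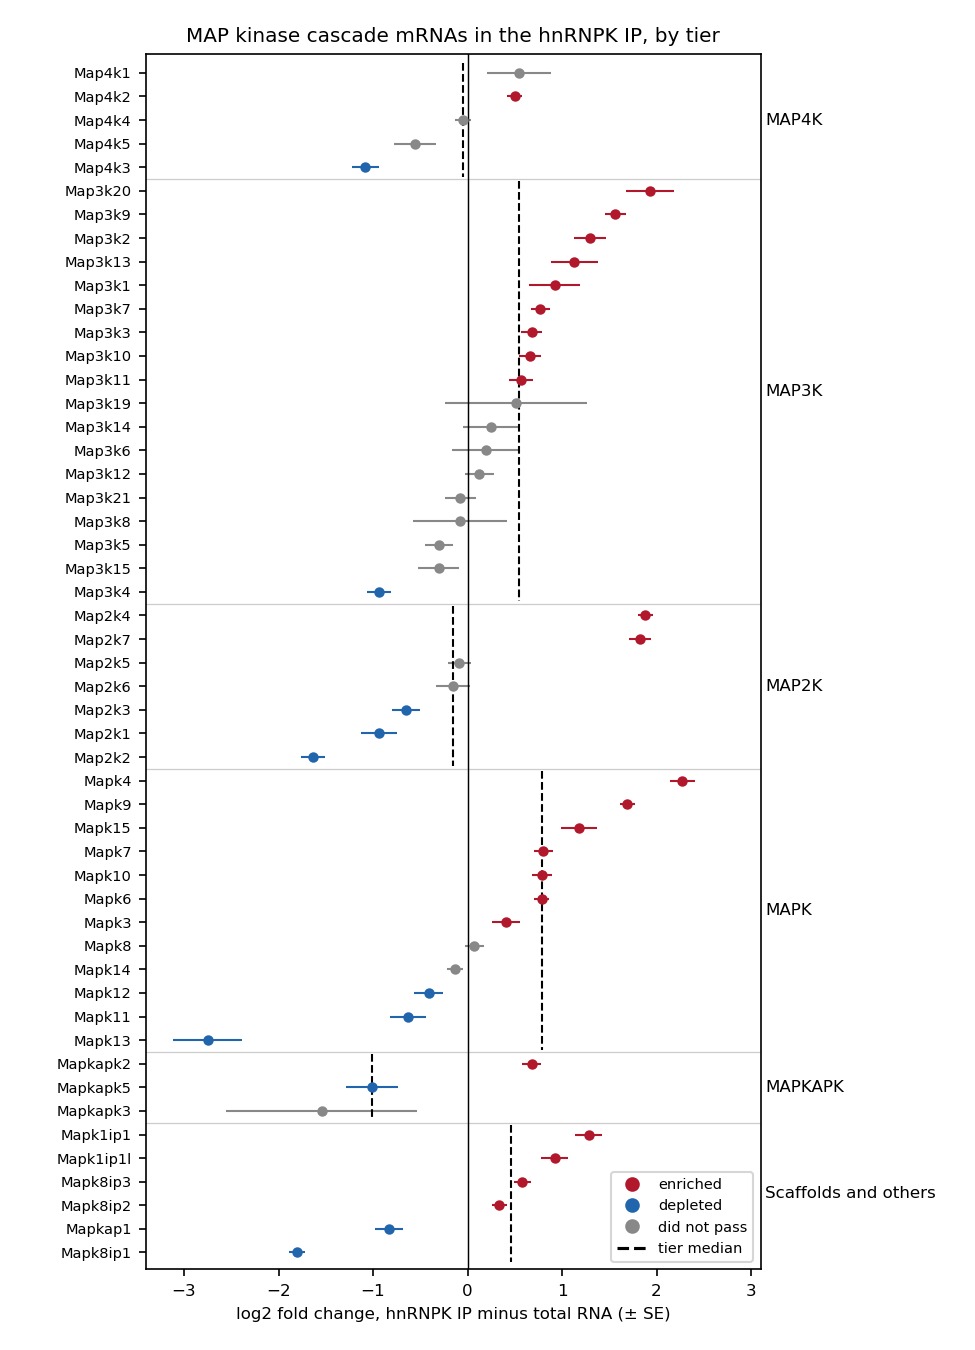
Log2 fold change ± SE (horizontal axis) of 51 tested members, grouped by tier, with colours for enriched, depleted and not passing, and a dashed line at the median of all tested members of the tier. The MAP2K tier separates into Map2k4 and Map2k7 near 1.8 to 1.9 and 5 genes below 0. In the MAP3K tier 9 of 18 genes were enriched, against 28.9% of all genes tested.

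Summed over its members, the MAP kinase tier had 1795 ± 63.7 CPM in the IP libraries and 923 ± 6.48 in the total RNA libraries, and the MAP3K tier had 1231 ± 140.4 against 714 ± 34.6. The MAP2K sums were 516 ± 14.8 and 424 ± 18 CPM, and the MAPKAPK sums 96.5 ± 9.16 and 65.5 ± 1.76. With TMM factors both sums were thus higher in the IP, while the median log2 fold changes of these tiers were below 0. The ratio of IP to total RNA sums was 1.22 for MAP2K and 1.47 for MAPKAPK. All tier sums depend on the scaling, and library totals alone shifted the median log2 fold change of all genes by −0.43. The direction of the sums with library totals alone was not tested. The MAP4K sums were 261 ± 6.36 and 258 ± 9.65, a difference smaller than the SD. The scaffolds and other members, at 657 ± 38.1 and 673 ± 11.3, also differed by less than the SD of the IP libraries.

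Map4k genes stand at the top of the cascade. Map4k3, a kinase linked to amino acid sensing, had 12.4, 15.8 and 13.5 CPM in IP libraries 1, 2 and 3 and 30.4, 28.1 and 29.5 in the total RNA libraries. Every IP library lay below every total RNA library, with a log2 fold change of −1.08 ± 0.14 (Benjamini-Hochberg adjusted p = 0.000232 in edgeR's quasi-likelihood test). Its close relative Map4k5 had 15.3, 27.6 and 17.7 CPM in the IP libraries and 32.4, 29.6 and 27.1 in the total RNA libraries. IP library 2 of Map4k5 reached into the range of total RNA, and the value of −0.56 ± 0.22 did not pass. It was called lower in 7 of 16 alternatives, among them DESeq2 (−0.52), limma-voom (−0.61), library totals alone and leaving out IP replicate 2 (−0.85).

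Map4k2 was the enriched member of this tier, at 104, 100.3 and 104 against 73.9, 71.3 and 73.0 CPM and a log2 fold change of 0.50 ± 0.080. The call ended with library totals alone, at 0.064. Map4k4, which acts on JNK and the cytoskeleton, had 127, 115 and 114 CPM in the IP libraries and 129.8, 120.1 and 119 in the total RNA libraries, with overlapping groups and a value of −0.049 ± 0.088. Map4k4 and Map4k5 were called lower with the offset for gene length, at −0.51 and −0.97. Map4k1, best known from blood cells, was low throughout, at 3.90, 7.67 and 4.59 and 2.99, 3.32 and 4.78 CPM, and its 0.54 ± 0.34 did not pass.

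Among MAP3K genes, the mixed-lineage, MEKK and TAK1 kinases supplied most of the enriched mRNAs. Map3k20, which encodes ZAK, a kinase that senses stalled ribosomes, was the most enriched of the tier. It had 140.3, 209 and 105 CPM in the IP libraries and 48.3, 34.9 and 36.1 in the total RNA libraries, 3.81-fold higher (log2 fold change 1.93 ± 0.26, Benjamini-Hochberg adjusted p = 0.000284 in edgeR's quasi-likelihood test). IP library 2 was the highest and library 3 the lowest, and the groups did not overlap. Map3k9, a mixed-lineage kinase upstream of JNK, had 83.7, 87.7 and 71.5 against 29.1, 25.8 and 27.1 CPM and a value of 1.57 ± 0.11.

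The other mixed-lineage kinases were less enriched. Map3k10 had 170, 159 and 206 CPM in the IP against 105, 115 and 118, and Map3k11 had 113, 94.7 and 120 against 65.1, 76.8 and 79.1. Their log2 fold changes were 0.66 ± 0.12 and 0.57 ± 0.12, and both calls ended with library totals alone, at 0.23 and 0.14. Map3k21, the remaining mixed-lineage kinase, did not pass at −0.077 ± 0.16.

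The MEKK genes Map3k1, Map3k2, Map3k3 and Map3k4 encode kinases that feed JNK, ERK5 and p38 routes. Map3k2 had 179, 231 and 155 CPM in the IP libraries and 88.7, 71.8 and 68.8 in the total RNA libraries (log2 fold change 1.30 ± 0.17). Its close relative Map3k3 had 82.4, 91.1 and 72.0 and 52.7, 50.4 and 50.3 (0.68 ± 0.11), and with library totals alone that was 0.24 and not called. Map3k1 had 75.3, 124 and 57.9 CPM in the IP libraries and 54.1, 40.7 and 41.2 in the total RNA libraries. IP library 2 was the highest, and the value of 0.92 ± 0.27 was 0.55 without it. The call ended on leaving out total RNA replicate 2 (0.89) or 3 (0.89), with library totals alone (0.48) and under the offset for gene length (0.61).

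Map3k4 went the other way and was the single depleted MAP3K. It had 28.9, 30.3 and 24.5 CPM in the IP libraries and 57.7, 55.7 and 46.9 in the total RNA libraries, with no overlap (log2 fold change −0.94 ± 0.13, Benjamini-Hochberg adjusted p = 0.000381 in edgeR's quasi-likelihood test). The ratio of Map3k1 to Map3k4 counts within a library does not depend on scaling between libraries. On the log2 scale it was 1.38, 2.04 and 1.24 in the IP and −0.093, −0.45 and −0.19 in total RNA, a difference of 1.80. An exact two-sided permutation test gave p = 0.1, the smallest that 3 libraries against 3 can give.

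Map3k7, which encodes TAK1, a kinase of cytokine signalling, had 219 ± 17.9 CPM in the IP libraries and 129 ± 10.8 in the total RNA libraries (SD, n = 3 each), with a log2 fold change of 0.77 ± 0.10. The leucine zipper kinase Map3k13 was enriched at 1.13 ± 0.25. Its partner in that family, Map3k12, at 0.13 ± 0.15, did not pass, and it shares 1573 exonic bases with Pcbp2 on the opposite strand. Pcbp2 had a mean of 28575 reads in the IP and 9450.3 in total RNA, against 930 and 1346 for Map3k12, and how the authors' counting divided them was not tested.

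The ASK family, which answers oxidative stress, had 0 calls of 3 in edgeR's quasi-likelihood test, 0 at an unadjusted p under 0.05, and 0 by DESeq2 or by limma-voom. Of all 16929 genes tested, 6357 were not called. With library totals alone 2 of the family were called lower, and with the offset for gene length 1. Map3k5 had 39.1, 34.1 and 29.3 CPM in the IP libraries and 47.9, 38.1 and 40.5 in the total RNA libraries (−0.30 ± 0.14), and was called lower without IP replicate 1, at −0.45, and with library totals alone or the offset for gene length, at −0.74 and −0.48. Map3k6 had 4.31, 9.01 and 4.54 and 6.15, 5.83 and 3.65 CPM (0.19 ± 0.36), and Map3k15 had 5.76, 6.73 and 4.61 and 7.81, 6.70 and 6.65 (−0.31 ± 0.22). Their groups overlapped, and Map3k15 was called lower with library totals alone, at −0.74. Map3k15 also shares 603 exonic bases with Pdha1 on the opposite strand. Map3k8, Map3k14 and Map3k19 were low or variable and did not pass, at −0.078 ± 0.50, 0.24 ± 0.30 and 0.51 ± 0.75.

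Of 7 MAP2K genes 2 were enriched (28.6%, against 28.9% of all genes tested) and 3 depleted (42.9%, against 33.6%). The enriched ones were Map2k4 and Map2k7, the kinases that activate JNK. Of the other 5, 0 were enriched and 3 depleted by edgeR, by DESeq2 and by limma-voom, and 0 were higher at an unadjusted p under 0.05. All 5 values were below 0 in these fits, so no call of higher was possible. Map2k4 (ENSMUSG00000033352.11, chromosome 11, 65688243 to 65788297) had 228, 233 and 218 CPM in the IP libraries and 60.4, 62.5 and 61.4 in the total RNA libraries. That is 3.69-fold higher, with a log2 fold change of 1.88 ± 0.080 (Benjamini-Hochberg adjusted p = 1.57e-06 in edgeR's quasi-likelihood test). Map2k7 (ENSMUSG00000002948.19, chromosome 8, 4238740 to 4247897) had 132, 128 and 147 against 34.1, 38.7 and 42.2 CPM, 3.54-fold higher, at 1.82 ± 0.11. In both, the lowest IP library was over 3 times the highest total RNA library. Both kept their call in all 16 alternative settings, within 1.45 to 1.99 and 1.39 to 2.00. Map2k7 shares 1349 exonic bases with Gm49320 on the same strand, which had a mean of 2.3 reads in the IP and 2.0 in total RNA. How the authors' counting treated reads in these bases was not tested.

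Map2k1 and Map2k2 encode MEK1 and MEK2, which activate ERK, and both were depleted. Map2k2 (ENSMUSG00000035027.18, chromosome 10, 81105915 to 81133975) had 61.0, 48.6 and 66.5 CPM in the IP libraries and 177, 183 and 187 in the total RNA libraries, 3.1-fold lower in the IP (log2 fold change −1.63 ± 0.13, Benjamini-Hochberg adjusted p = 1.62e-05 in edgeR's quasi-likelihood test). Map2k1 had 37.4, 22.3 and 35.7 against 58.7, 63.9 and 60.2 CPM and a value of −0.94 ± 0.19, with IP library 2 the lowest. The proteins share the same residues at the loop printed above. Their transcripts share 7 different sequences of 50 bases, taken at every offset so that they may overlap, so few reads could fit both genes.

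Map2k3 and Map2k6 encode the kinases that activate p38. Map2k3 was depleted, at 20.4, 27.2 and 25.7 CPM in the IP libraries and 33.6, 40.9 and 40.2 in the total RNA libraries (−0.65 ± 0.15), but lost its call with the offset for gene length (−0.36). Map2k6 had 13.6, 21.1 and 16.4 and 17.8, 18.9 and 20.1 CPM, with overlapping groups and a value of −0.16 ± 0.18 that did not pass. Map2k5, which activates ERK5, was at −0.085 ± 0.13 and did not pass. Map2k5 and Map2k6 were called lower with library totals alone, at −0.52 and −0.59.

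These differences changed the make-up of the tier. Of all MAP2K reads, Map2k4 and Map2k7 together made up 70.2 ± 1.53% in the IP against 23.5 ± 0.263% in total RNA (SD, n = 3 each). Map2k2 alone made up 11.3 ± 1.5% in the IP and 43.0 ± 0.845% in total RNA, where it was the most read member of the tier. The shares are taken within a library, so they do not depend on scaling between libraries.

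**Figure D2:**
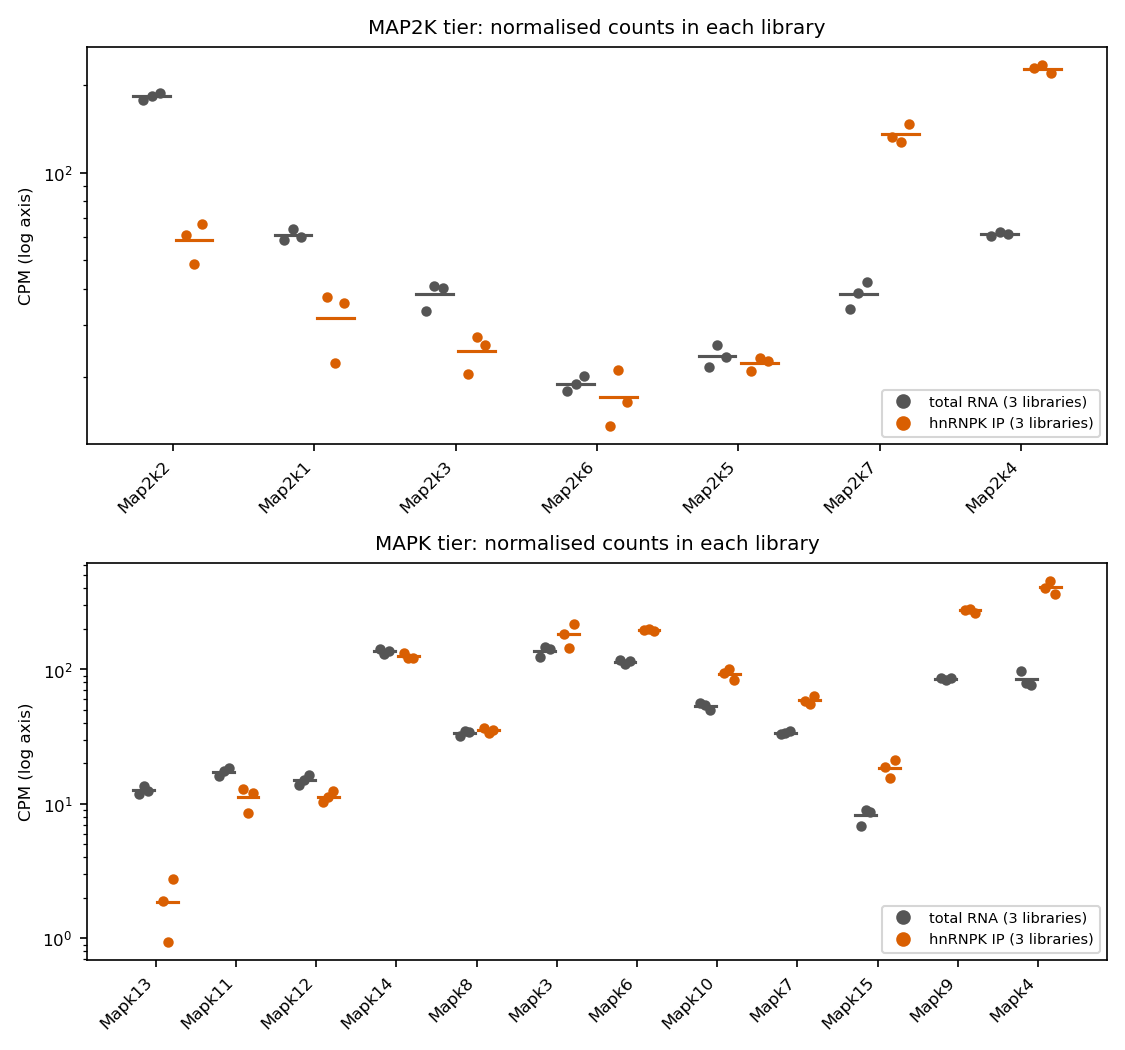
Normalised counts (CPM, log axis) of the 7 MAP2K genes (top) and 12 MAP kinases (bottom) in each of the 3 total RNA and 3 hnRNPK IP libraries, with a bar at each mean and genes ordered by log2 fold change. Map2k4 and Map2k7 sit above total RNA in every IP library and Map2k1, Map2k2 and Map2k3 below it.

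Among the MAP kinases the p38 genes stood on the depleted side and most others on the enriched side. Of the 4 p38 genes, all with the threonine-glycine-tyrosine triplet, 3 were depleted (against 33.6% of all genes tested) and 0 enriched (against 28.9%). Mapk14 did not pass. Depleted p38 genes numbered 2 by DESeq2, 3 by limma-voom, 1 with the offset for gene length and 4 with library totals alone. By edgeR 0 of these genes were higher at an unadjusted p under 0.05 too, and 0 by DESeq2 or by limma-voom. All 4 values were below 0 in these fits, so no call of higher was possible and the zeros add nothing to the signs. Mapk13 (ENSMUSG00000004864.12, chromosome 17, 28769297 to 28780233) encodes p38 delta. It had 1.89, 0.940 and 2.74 CPM in the IP, from 64, 31 and 110 reads, and 11.9, 13.5 and 12.4 in total RNA. That is 6.73-fold lower, the lowest value of all members that were tested (log2 fold change −2.75 ± 0.37, Benjamini-Hochberg adjusted p = 0.000288 in edgeR's quasi-likelihood test).

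Mapk11, p38 beta, had 13, 8.49 and 12.1 CPM in the IP libraries and 16, 17.4 and 18.5 in the total RNA libraries (−0.63 ± 0.19), and its call ended on leaving out any of the 3 total RNA libraries (−0.77 to −0.47 over all 6 omissions) or under the offset for gene length (−0.25). Mapk12, p38 gamma, had 10.3, 11.2 and 12.5 and 13.9, 15 and 16.4 CPM. Its −0.41 ± 0.16 lay at the edge of the test (Benjamini-Hochberg adjusted p = 0.0497 in edgeR's quasi-likelihood test) and kept its call in 3 of 16 alternatives, being lost on leaving out any library other than IP replicate 3 (−0.43 to −0.32 without those). Mapk14, p38 alpha and the main form of p38 in most tissues, had 132, 122 and 121 and 142, 131 and 138 CPM (−0.13 ± 0.084). It was called lower with library totals alone, at −0.57.

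The JNK genes share the threonine-proline-tyrosine triplet and were not called alike. Mapk9 (ENSMUSG00000020366.18, chromosome 11, 49846751 to 49886421) encodes JNK2. It had 278, 283 and 265 CPM in the IP libraries and 86.9, 83.1 and 86.0 in the total RNA libraries, 3.23-fold higher (log2 fold change 1.69 ± 0.079, Benjamini-Hochberg adjusted p = 2.11e-06 in edgeR's quasi-likelihood test). Mapk8, which encodes JNK1, had 36.7, 33.6 and 35.2 CPM in the IP libraries and 32.1, 34.6 and 34.0 in the total RNA libraries, overlapping groups with a value of 0.069 ± 0.10. Library totals alone (−0.36) or the offset for gene length (−0.50) made it called lower. Mapk10, the JNK gene of neurons and endocrine cells, was enriched at 92.5 ± 8.95 against 53.6 ± 3.33 CPM (SD, n = 3 each) and 0.79 ± 0.11. It was 0.23 with the offset for gene length, and lost its call when the replicate block was added to that offset (0.23).

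Within a library the log2 ratio of Mapk8 to Mapk9 counts was −2.92, −3.07 and −2.91 in the IP and −1.44, −1.27 and −1.34 in total RNA. The 2 sets did not overlap and differed by −1.62, a 3.07-fold change in the balance of these mRNAs (exact two-sided permutation test, p = 0.1, the smallest possible). The ratio of Map2k4 to Map2k7, by contrast, was 0.78, 0.87 and 0.57 in the IP and 0.83, 0.69 and 0.54 in total RNA, with overlapping sets (difference 0.056, exact two-sided permutation test, p = 0.7).

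Mapk3, which encodes the kinase ERK1, was called enriched, at 185, 145 and 217 CPM in the IP libraries and 123, 146 and 143 in the total RNA libraries. Its IP library 2 lay within the total RNA range, and the value of 0.41 ± 0.15 (Benjamini-Hochberg adjusted p = 0.0471 in edgeR's quasi-likelihood test) kept its call in 8 of 16 alternatives. The call was lost on leaving out any library other than IP replicate 2 (0.20 to 0.49 without those), and the value was −0.024 with library totals alone.

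Mapk7, the large ERK5, was enriched at 58.9 ± 4.39 against 33.8 ± 1.09 CPM (SD, n = 3 each) and 0.80 ± 0.10. The atypical kinases Mapk4, Mapk6 and Mapk15 were all enriched. Mapk4 (ENSMUSG00000024558.12, chromosome 18, 73928486 to 74065359) had 406, 454 and 366 CPM in the IP libraries and 97.7, 79.1 and 76.6 in the total RNA libraries. At 4.84-fold it was the most enriched of the tested members (log2 fold change 2.27 ± 0.13, Benjamini-Hochberg adjusted p = 4.43e-06 in edgeR's quasi-likelihood test). Mapk6, its closest relative, had 196, 201 and 194 against 117, 111 and 116 CPM and 0.78 ± 0.077. The log2 ratio of Mapk4 to Mapk6 counts was 1.05, 1.17 and 0.92 in the IP and −0.26, −0.48 and −0.60 in total RNA, so Mapk4 had more reads than Mapk6 in each IP library and fewer in each total RNA library. Mapk15 was low, at 18.6 ± 2.85 against 8.21 ± 1.22 CPM (SD, n = 3 each) and 1.18 ± 0.19.

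Of the MAPKAPK genes, Mapkapk2 was enriched, at 95.8, 83.6 and 101 CPM in the IP libraries and 58.0, 59.7 and 57.4 in the total RNA libraries (0.68 ± 0.10). This call ended with library totals alone, at 0.24. Mapkapk5 was depleted, at 2.51, 2.70 and 2.29 and 6.46, 4.53 and 4.16 CPM (−1.01 ± 0.27), and lost the call without total RNA replicate 1 (−0.76) and with the offset for gene length (−0.70). It shares 1805 exonic bases with Adam1a on the same strand. Mapkapk3 had 30, 0 and 48 reads in the IP libraries and 137, 113 and 97 in total RNA. Its −1.54 ± 1.01 did not pass, and without IP replicate 2, the library with 0 reads, it was −0.96 and called.

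The scaffolds and other members ranged from −1.81 to 1.28. Mapk8ip1 (ENSMUSG00000027223.15, chromosome 2, 92383676 to 92401263), the JNK scaffold also known as islet-brain 1 and abundant in beta cells and neurons, was the most depleted. It had 82.4, 74.3 and 82.2 CPM in the IP libraries and 278, 280.1 and 277 in the total RNA libraries, 3.49-fold lower (log2 fold change −1.81 ± 0.083, Benjamini-Hochberg adjusted p = 2.03e-06 in edgeR's quasi-likelihood test). The groups were far apart against their spread, with means of 79.6 ± 4.59 and 278 ± 1.67 CPM (SD, n = 3 each). Mapk8ip2, a scaffold of the same family, had 245, 244 and 227 against 189, 195 and 183 CPM and was enriched at 0.34 ± 0.079. That call was lost without IP replicate 1 (0.28) and with library totals alone (−0.10).

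The log2 ratio of Mapk8ip1 to Mapk8ip2 counts was −1.57, −1.71 and −1.47 in the IP and 0.56, 0.52 and 0.60 in total RNA. Mapk8ip1 therefore had more reads than Mapk8ip2 in each total RNA library and fewer in each IP library, a shift of −2.14 (exact two-sided permutation test, p = 0.1, the smallest possible). Mapk8ip3, which also links JNK to kinesin motors, was enriched at 0.58 ± 0.091. The call ended with library totals alone (0.14), and the sign turned with the offset for gene length (−0.12). It shares 1557 exonic bases with Eme2 on the same strand and 1309 with Mrps34 on the other.

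Mapk1ip1 had 35.9, 37.6 and 38.8 CPM in the IP libraries and 13.4, 18 and 14.8 in the total RNA libraries (1.28 ± 0.14), and Mapk1ip1l had 154, 169 and 122 and 88.3, 72.4 and 74.0 (0.92 ± 0.14). Both were enriched with no overlap. Mapkap1, which encodes Sin1, a subunit of the mTOR complex that phosphorylates Akt and no part of the cascade itself, was depleted at 9.33, 8.22 and 9.18 against 16.2, 15.5 and 15.9 CPM (−0.83 ± 0.15).

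In 15 pairs of related members, chosen with earlier results of these data known, the within-library ratios of the 2 groups did not overlap in 11. Of all single genes tested, 71.4% did not overlap, and the share among other pairs of genes was not computed. Whether related pairs differ from other pairs in this was not tested. Each of the 11 had p = 0.1, and 0.136 adjusted over the 15 pairs (exact two-sided permutation tests), so no pair could pass 0.05 with 3 libraries a group. The widest shifts with reads in every library were Mapk12 to Mapk13 (2.46), Mapk8ip1 to Mapk8ip2 and Map3k1 to Map3k4. Mapkapk2 to Mapkapk3 gave 3.68, which rests on the library with 0 Mapkapk3 reads and was 1.72 without it. Smaller shifts without overlap were Map2k1 to Map2k2 (0.67), Map3k2 to Map3k3 (0.62), Mapk14 to Mapk11 (0.52), Map2k3 to Map2k6 (−0.47) and Map4k3 to Map4k5 (−0.48). Pairs whose sets overlapped included Map2k4 to Map2k7, Map3k5 to Map3k6 (−0.45) and Map3k10 to Map3k11 (0.091).

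**Figure D3:**
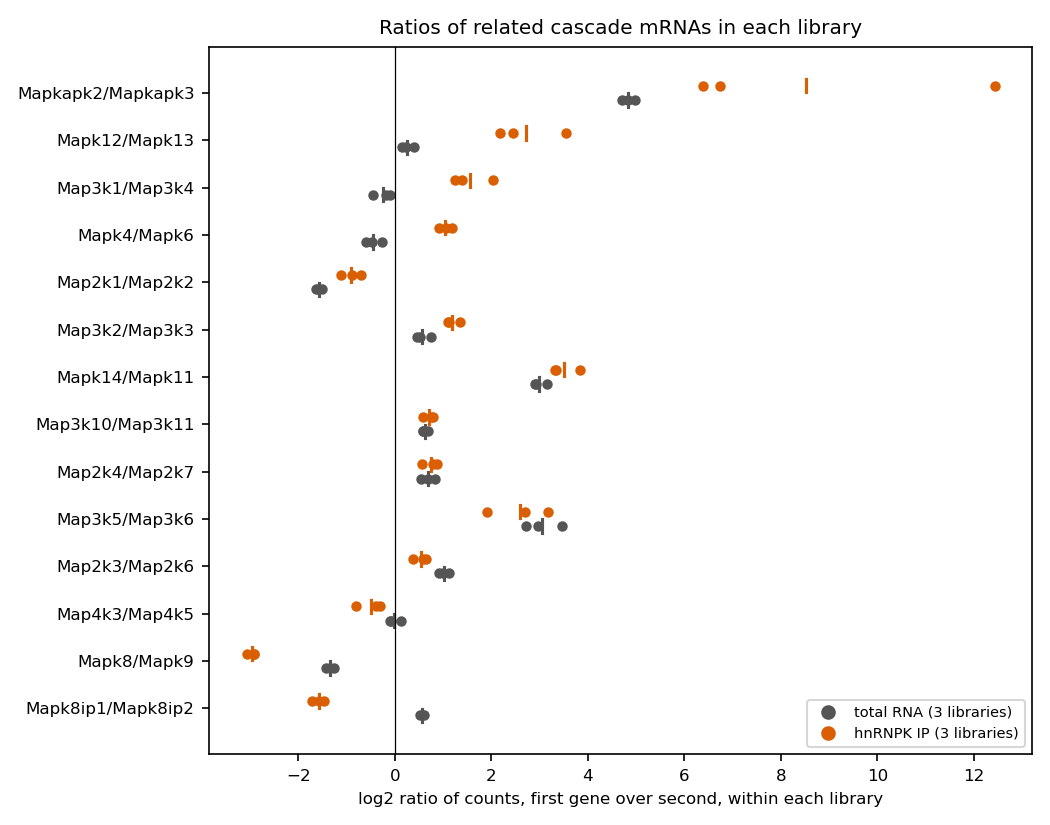
Log2 ratio of the counts of 2 related genes within each library (horizontal axis), for 14 pairs, with a bar at the mean of the 3 total RNA and the 3 hnRNPK IP libraries. The 2 colours are apart for 11 pairs, among them Mapk8/Mapk9 and Mapk8ip1/Mapk8ip2, and overlap for 3, among them Map2k4/Map2k7.

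Grouped by route, a grouping made after the values were seen, the JNK kinases and their activators (Map2k4, Map2k7, Mapk8, Mapk9 and Mapk10) had 4 enriched and 0 depleted of 5. Mapk8, which did not pass, was called lower with library totals alone or the offset for gene length. The p38 kinases and their activators had 0 enriched and 4 depleted of 6, with values of −2.75 to −0.13, and DESeq2 called 3. With the offset for gene length 1 of 6, Mapk13, was depleted, and with library totals alone 6 of 6. Of all genes tested 28.9% were enriched and 33.6% depleted. By edgeR with TMM factors 0 members stood on the empty side of either route at an unadjusted p under 0.05, and 0 by DESeq2 or by limma-voom. In these fits all JNK route values were above 0 and all p38 route values below 0, so no call on the empty side was possible. Because the routes were picked from these same values, the empty sides are a description, and a difference between routes was not tested.

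Levels can be compared between genes only per length, here as CPM per kb of annotated exon. In total RNA Mapk3 had 60.9 ± 5.47 and Mapk8ip1 59.9 ± 0.360 CPM per kb (SD, n = 3 each), which did not differ beyond their spread. Below them came Mapk8ip2 (33.2 ± 1.11), Map2k2 (32.2 ± 0.920) and Mapk14 (31.3 ± 1.22), 3 neighbours whose means differed by about their SD. In the IP the order began with Mapk3 (80.7 ± 16.1) and Mapk4 (75.7 ± 8.19), which did not differ beyond their spread, and Map2k4 had 48.6 ± 1.61. Mapk4 was at 15.6 ± 2.13 and Map2k4 at 13.2 ± 0.220 CPM per kb in total RNA. At the low end of total RNA were Map3k8 (0.548 ± 0.167), Mapkapk3 (0.368 ± 0.0348) and Map3k19 (0.0894 ± 0.0485).

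Long transcripts had higher log2 fold changes across the transcriptome. Over all tested genes split into 10 bins of exonic length, the median was −0.91 in the bin of the shortest and 0.63 in the bin of the longest. The members were long, with a median exonic length of 5142 bases against 3755 for all tested genes. Spearman's rho between exonic length and log2 fold change was 0.20 over the 52 members and 0.29 over all genes, as a description across genes that share the same libraries. The median length was 5902 bases in enriched and 3805 in depleted members. With an offset that removes the length trend in each library, 23 members were enriched and 11 depleted, and their median was 0.21 against 0.04 for all genes.

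**Figure D4:**
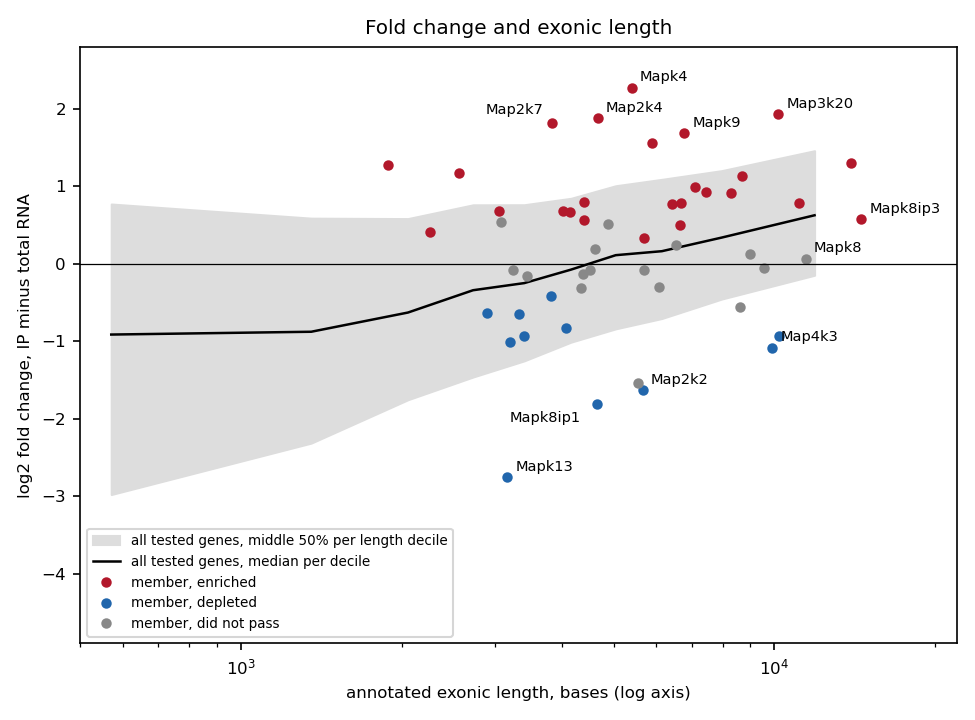
Log2 fold change (vertical axis) against annotated exonic length in bases (log axis) for the 52 tested members, over the median (line) and middle 50% (band) of all tested genes in 10 bins of length. Mapk4, Map2k4, Map2k7 and Mapk9 lie above the band at their length, and Mapk13, Mapk8ip1 and Map2k2 below it.

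hnRNPK is known for binding runs of C, so the 3' UTRs of the members were read for C content. For 50 tested members with a 3' UTR of at least 100 bases, the C share had a median of 23.7% in 24 enriched and 25.9% in 11 depleted members. Runs of CCCC, counted on the sense strand with overlaps allowed, had medians of 5.26 and 5.41 per kb, and 2.46 in 15 members that did not pass. The CCCC median was 4.57 per kb over all 50 members, against 3.42 per kb over 12976 tested genes. TCCC had medians of 5.37 and 5.94 per kb, and 3.14 in the members that did not pass. Over all 50 members the TCCC median was 4.32, against 4.42 over all genes. The 2 motifs overlap within a sequence such as TCCCC. Over all tested genes the CCCC median was 4.82 per kb in enriched and 2.22 in depleted genes. Spearman's rho with the log2 fold change was 0.20 for CCCC in the members and 0.31 over all tested genes, and 0.39 and 0.50 for 3' UTR length, as descriptions.

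The most C-rich 30 bases of a 3' UTR are printed for 3 enriched and 4 depleted members that carry the contrasts above, to show what these windows look like. Capitals mark runs of at least 3 C, and the sequences are the sense strand of the annotated transcript with the longest 3' UTR, which may not be the form in these cells. First come Map2k4 (chr11:65688979-65689008, minus strand), Map2k7 (chr8:4245859-4245888, plus) and Mapk9 (chr11:49884239-49884268, plus), all enriched.
Map2k4: ttCCCattttccaCCCCtggCCCCCtaCCC
Map2k7: CCCCgggccacggccaccgaCCCCCCCCCC
Mapk9: CCCtgaaCCCaCCCatcctttgctCCCCtc

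The depleted members are Map2k1 (chr9:64186617-64186646, minus strand), Map2k2 (chr10:81130297-81130326, plus), Mapk13 (chr17:28779868-28779897, plus) and Mapk8ip1 (chr2:92384316-92384345, minus), in GRCm38.
Map2k1: ggcatgccatgttgctttcaggcctctCCC
Map2k2: ctCCCCCtgaCCCgcctgcctccacctctc
Mapk13: gtctgtactctgtCCCCCCCaaCCCCCatc
Mapk8ip1: caCCCCCactctctgcagCCCCtcagCCCC

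Of the depleted members printed, Map2k2 and Mapk8ip1 had 19 C in their stretch, Mapk13 had 16 and Map2k1 had 11. The enriched members had 21 in Map2k7 and 17 in Map2k4 and Mapk9. The stretch held 14 to 21 C in 22 enriched members (median 17) and 5 to 19 in 11 depleted members (median 16). Members on chromosome 18, the enriched Mapk4 and Map3k2 among them, were left out of this count. A longer 3' UTR offers more windows to pick from. The median 3' UTR was 2078 bases in enriched and 964 in depleted members, and that of Mapkapk5, with 5 C, had 107. The part of length in this was not tested. A C-rich stretch is a description of the sequence and shows no binding.

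Around the members, 80 other genes of the pathway were looked up, of which 75 were tested. Of these, 46 (61.3%) were enriched and 17 (22.7%) depleted, against 28.9 and 33.6 percent of all genes tested, and their median log2 fold change was 0.72. With library totals alone 36 were enriched and 22 depleted, and of all 16929 genes 3447 were enriched and 7278 depleted. The inputs, from receptors to small GTPases, had 12 enriched and 5 depleted of 18, and the upstream kinases with other names 5 and 2 of 8. Scaffolds and binding partners had 7 and 3 of 12, target kinases 4 and 2 of 7, and target transcription factors 7 and 1 of 9. Phosphatases and inhibitors had 10 and 4 of 20, and Nlk, a further MAP kinase, was enriched at 0.64 ± 0.12.

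The highest values among pathway genes with at least 5 CPM were those of Spred2 (2.74 ± 0.090) and Spred3 (2.53 ± 0.092), which restrain Ras to ERK signalling, Ksr2 (2.60 ± 0.21), a scaffold for Raf and MEK, and Sos1 (2.39 ± 0.15), an exchange factor that activates Ras. Spred2 had 224, 249.8 and 224 CPM in the IP libraries and 35.1, 34.7 and 34.5 in the total RNA libraries. The lowest were Lamtor2 (−3.83 ± 0.32) and Lamtor3 (−2.99 ± 0.54), subunits of a lysosomal complex of which Lamtor3 binds MEK1, then Hras (−2.66 ± 0.16) and Pebp1 (−2.51 ± 0.30), an inhibitor of Raf. Hras had 16.8, 11.6 and 16 CPM in the IP libraries and 84.9, 94.0 and 101 in the total RNA libraries.

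Braf and Araf, named here after their values were seen, encode Raf kinases that act as MAP3Ks for MEK, and they were called in opposite directions. Braf was enriched at 549 ± 131 against 126 ± 15.7 CPM (SD, n = 3 each, log2 fold change 2.13 ± 0.18). Araf was depleted at 59.2 ± 12.3 against 105 ± 1.33 CPM (−0.82 ± 0.15).

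**Figure D5:**
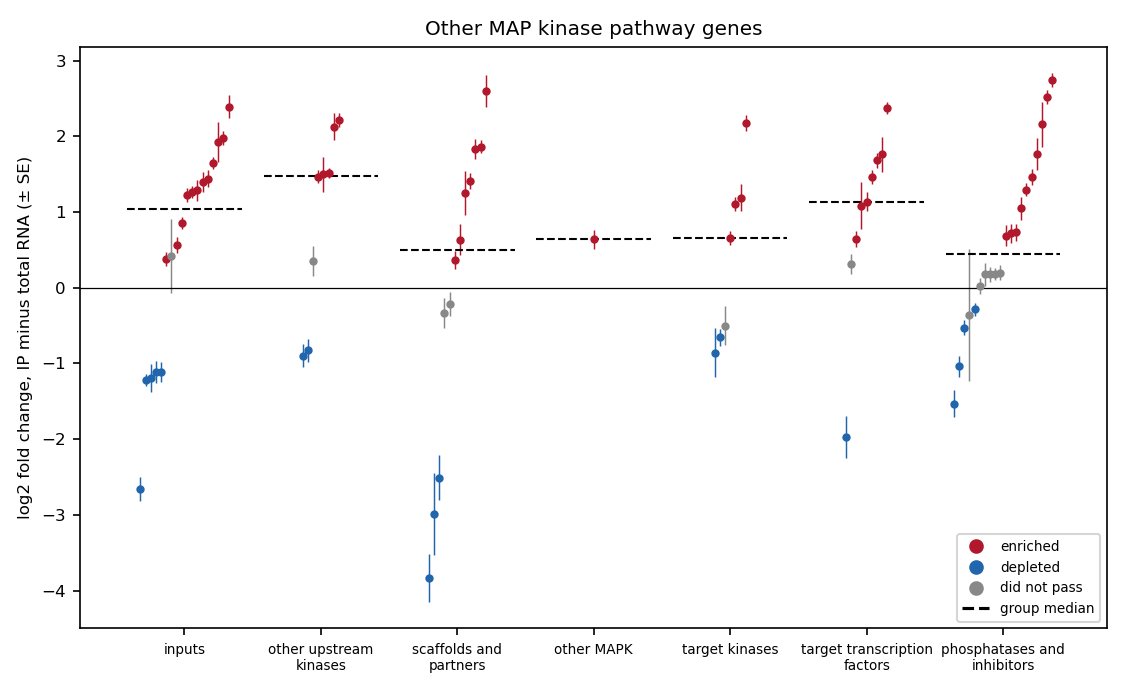
Log2 fold change ± SE (vertical axis) of the 75 tested pathway genes outside the cascade symbols, by role, with a dashed line at each group's median. With TMM factors enriched genes outnumber depleted ones in each group, and the lowest points are Lamtor2 and Lamtor3 among scaffolds and partners.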

How the data were processed

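RNA was sequenced from 6 Min6 libraries, 3 of hnRNPK IP and 3 of total RNA, grouped by sample title. The deposited values are whole-number counts of reads per gene without normalization. Of counts from 1 to 20, 58.6% to 68.7% were even in each library, and whether both mates of a pair were counted is unknown, so halved counts were tried. The authors used TopHat2, featureCounts and the mm10 genome, per the submitters' processing notes. Their versions, annotation and strand setting are not given in the sources used, so reads of overlapping genes (17 of 53 members share exonic bases with another gene) cannot be told apart. GENCODE M21 (GRCm38) matched 53274 of 53379 identifiers and supplied symbols, exonic lengths and sequences.

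The test was edgeR 4.0.16 in R 4.3.3 (TMM, filterByExpr with a minimum count of 10 and total of 15, glmQLFit and glmQLFTest on group). The fit was also run on simulated data in which few genes changed, so that run cannot show whether the scaling between the groups holds here. Alternatives used DESeq2 1.42.0, limma 3.58.1, library totals, RLE factors, other filters, a gene length offset (loess span 0.3), a replicate block and omission of each library. Paralog ratios added 0.5 to each count. Chi-square per degree of freedom between libraries of a group was 6.40 to 123, so none was counted as a repeat. Members, lists, pairs and the rule for named genes (in each tier the 2 highest and 2 lowest log2 fold changes, all of a tier of 5 or fewer, both genes of each pair, and 4 highest and 4 lowest called pathway genes) were chosen with earlier results of these data known. Some genes that the rule took are not reported here.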

Additional observations from a re-analysis of the deposited data

How the results depend on the processing

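Of 36 called members, 22 kept direction and call in every alternative of 16 that tested them, 15 enriched and 7 depleted. With library totals alone the members had 16 enriched and 20 depleted. Medians of log2 fold change are given in the order of all members, MAP4K, MAP3K, MAP2K, MAPK, MAPKAPK and the scaffold group. With library totals alone they were −0.062, −0.48, 0.11, −0.59, 0.35, −1.45 and 0.023. With the offset for gene length they were 0.21, −0.51, 0.52, 0.11, 0.55, −0.70 and 0.037, and with a replicate block added to that offset 0.21, −0.51, 0.52, 0.076, 0.55, −0.67 and 0.039. With at least 5 CPM in 3 libraries, which left 47 members and 1 MAPKAPK gene, they were 0.52, −0.19, 0.73, −0.044, 0.89, 0.79 and 0.57. Leaving out each library gave 0.29 to 0.41 for all members, −0.13 to 0.028 for MAP4K, 0.46 to 0.59 for MAP3K, −0.33 to −0.076 for MAP2K, 0.68 to 0.82 for MAPK, −1.10 to −0.76 for MAPKAPK, 0.42 to 0.52 for the scaffold group and −0.017 to 0.14 for the Map2k4 to Map2k7 ratio. The cause of these moves was not tested.

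Signs changed for Mapk3 (−0.024), Mapk8ip2 (−0.10), Mapk8 (−0.36), Map3k12 (−0.31), Map3k6 (−0.25) and Map3k14 (−0.19) with library totals alone. With the length offset they changed for Mapk8ip3 (−0.12), Mapk8 (−0.50), Map3k12 (−0.31), Map2k5 (0.22) and Map2k6 (0.11), and with the replicate block and that offset for Mapk8ip3 (−0.12), Mapk8 (−0.51), Map3k12 (−0.30), Map2k5 (0.22), Map2k6 (0.076) and Map3k14 (−0.038). The stricter filter gave Map2k5 0.027, Map3k21 0.034 and Map4k4 0.061. Over the 6 omissions Map2k5 ranged over −0.16 to 0.017, Map3k8 −0.48 to 0.26, Map3k6 −0.24 to 0.37, Map3k14 −0.16 to 0.43 and Map4k4 −0.13 to 0.028. The replicate numbers share no stated origin, and same-numbered libraries did not deviate together (r = 0.001, −0.071 and 0.12), nor did every library correlate best with its own number. With the replicate block 24 members were enriched and 10 depleted, since Mapk3 and Mapk12 lost their calls.

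Low counts limit Map3k19, Map3k8 and Mapkapk3, and each call is relative to the rest of its library.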
